A study of Homo sapiens with 6 samples.

Results

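The genes described here are the sensors, kinases, phosphatase subunits and proteases with which a cell starts and ends its response to unfolded protein and to other stresses on translation. They are 10 genes chosen by symbol for their known roles, out of 18780 gene symbols with a value. Earlier results of these data were known when the genes were chosen. The endoplasmic reticulum (ER) sensors are ERN1, EIF2AK3 and ATF6B, and the further eIF2alpha kinases are EIF2AK1, EIF2AK2 and EIF2AK4. The phosphatase subunits are PPP1R15A and PPP1R15B, and the site proteases are MBTPS1 and MBTPS2. RNA sequencing was done on 6 libraries of PC-3, an established human prostate cancer line grown in culture. In 3 libraries the RNA came from cells given trans-Gnetin H (TGH), which consists of 3 linked units of the polyphenol resveratrol, for 24 h at 2.5 µM, and in the other 3 from control cells kept for 24 h with dimethyl sulfoxide (DMSO). All 6 share the cell line and its medium with serum, and the labels name no genetic change.

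In the lumen of the ER the sensors IRE1 (the product of ERN1) and PERK (EIF2AK3) respond to unfolded protein. IRE1 then splices the mRNA of the transcription factor XBP1, and PERK phosphorylates the translation factor eIF2alpha. ATF6B belongs to another kind of sensor, a membrane-bound transcription factor that travels to the Golgi and is released by the site proteases. PERK shares its substrate with HRI (EIF2AK1, known for sensing haem shortage and mitochondrial stress), PKR (EIF2AK2, which binds double-stranded RNA) and GCN2 (EIF2AK4, which binds uncharged tRNA). Phosphorylated eIF2alpha lowers most protein synthesis while favouring the translation of ATF4, and the phosphatase subunits GADD34 (PPP1R15A) and CReP (PPP1R15B) guide protein phosphatase 1 to remove the phosphate. The sensors and kinases are known to be switched on and off mainly by binding, cutting and phosphorylation, none of which RNA sequencing measures.

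Levels are given in TPM, an abundance of transcripts scaled by transcript length and by library. TPM does not hold the number of reads, so sequencing depth is unknown. The libraries carried epithelial mRNA. Summed TPM of KRT8, KRT18, EPCAM and CDH1 ran from 1060 to 1068 with TGH and from 1398 to 1421 in DMSO. KRT8 averaged 424.5 TPM with TGH and 604.1 TPM in DMSO, and KRT18 421.4 and 577.5 TPM. EPCAM averaged 165.6 TPM with TGH and 180.8 TPM in DMSO, and CDH1 51.9 and 49.6 TPM. The part of the gap between the sums in the results below was not tested. Immune markers summed to at most 0.129 TPM, and endothelial markers to at most 0.313 TPM. Of the fibroblast markers COL1A1 reached 3.52 TPM, and DCN and PDGFRA stayed at or below 0.0499 TPM. Genes listed at exactly 0 numbered from 1342 to 1498 in the TGH libraries, and 3074, 3185 and 1530 in DMSO replicates 1 to 3. None of the 10 genes was at 0 in any library.

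Promoters of 4 of these genes are shown because they hold the genes that rose most, together with the paralog of the one that rose furthest. They are the 250 bases before the annotated start, taken from RefSeq on GRCh38.p14 and written 5′ to 3′ on the strand of the gene, at chr19:48872171-48872420 (plus strand), chr1:204411818-204412067, chr2:88627465-88627714 and chr17:64130145-64130394 (minus strand). Capitals mark a match to 1 of 4 motifs searched on both strands of the window from 250 bases before to 50 bases after the start.
PPP1R15A: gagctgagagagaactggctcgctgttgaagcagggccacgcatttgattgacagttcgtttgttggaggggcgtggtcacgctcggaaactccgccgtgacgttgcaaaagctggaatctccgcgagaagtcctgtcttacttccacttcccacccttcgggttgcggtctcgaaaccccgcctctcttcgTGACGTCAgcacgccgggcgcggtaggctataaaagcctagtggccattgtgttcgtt
PPP1R15B: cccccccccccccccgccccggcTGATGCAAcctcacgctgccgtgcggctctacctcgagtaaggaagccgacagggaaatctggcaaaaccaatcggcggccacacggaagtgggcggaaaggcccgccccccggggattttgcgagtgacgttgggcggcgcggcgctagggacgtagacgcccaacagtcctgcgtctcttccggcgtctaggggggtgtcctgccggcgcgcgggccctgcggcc
EIF2AK3: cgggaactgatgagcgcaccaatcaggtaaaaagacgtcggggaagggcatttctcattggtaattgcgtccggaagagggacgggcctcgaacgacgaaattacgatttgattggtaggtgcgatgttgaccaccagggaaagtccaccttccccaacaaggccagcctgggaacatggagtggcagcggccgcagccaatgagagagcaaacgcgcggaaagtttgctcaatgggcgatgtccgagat
ERN1: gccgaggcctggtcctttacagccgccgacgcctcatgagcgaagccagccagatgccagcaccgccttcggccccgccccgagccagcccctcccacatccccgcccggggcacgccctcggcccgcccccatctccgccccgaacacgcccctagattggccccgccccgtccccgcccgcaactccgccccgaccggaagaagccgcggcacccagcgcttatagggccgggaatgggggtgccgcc

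The motifs were the ER stress response element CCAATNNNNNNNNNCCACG, the core of the unfolded protein response element TGACGTG, the amino acid response element core TGATGNAA and the cyclic AMP response element TGACGTCA. They were held by 0.0769%, 1.97%, 3.62% and 1.85% of 35116 RefSeq windows of the same length. TGACGTG and TGACGTCA share their first 6 letters. Of 9 of the 10 genes with a window, PPP1R15A held TGACGTCA, from 58 to 51 bases before its start, and PPP1R15B held a match to TGATGNAA, from 227 to 220 bases before its start. The windows of EIF2AK3, ERN1, ATF6B, EIF2AK2, EIF2AK4, MBTPS1 and MBTPS2 held no match to these letters. Guanine and cytosine made up 57.2% of the PPP1R15A promoter, 70.8% of the PPP1R15B promoter, 55.2% of the EIF2AK3 promoter and 75.2% of the ERN1 promoter. A match of letters is a description and does not show that a factor binds there.

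With TGH, mRNA of PPP1R15A, EIF2AK3 and ERN1 was higher, while differences of the other 7 genes lay between -0.20 and 0.13 in log2 units. PPP1R15A mRNA was 1.92 times as abundant in TPM as in DMSO, EIF2AK3 mRNA 1.68 times and ERN1 mRNA 1.64 times. PPP1R15B and ATF6B were slightly higher, EIF2AK2, MBTPS2 and EIF2AK4 slightly lower, and EIF2AK1 and MBTPS1 did not pass the test. Differences were tested with limma on log2(TPM + 1) over 12018 genes that averaged 1 TPM or more, and a gene was called at a Benjamini-Hochberg adjusted p under 0.05. All 10 genes passed that filter.

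Of the 10 genes, 5 were called higher, 3 were called lower and 2 were not called. Over all genes tested, 28.9% were called higher, 26.3% were called lower and 55.2% were called in either direction. With 55.2% called among all genes, 8 called genes of 10 are no result about these genes. The groups did not overlap for 8 of the 10 genes, against 64.4% of all genes tested. The median difference of the 10 genes was 0.06 on the log2 scale, beside 0.02 over all genes tested. The labels do not say whether replicates came from separate cultures, so the p-values measure the spread between these libraries, which may be technical.

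**Figure D1:**
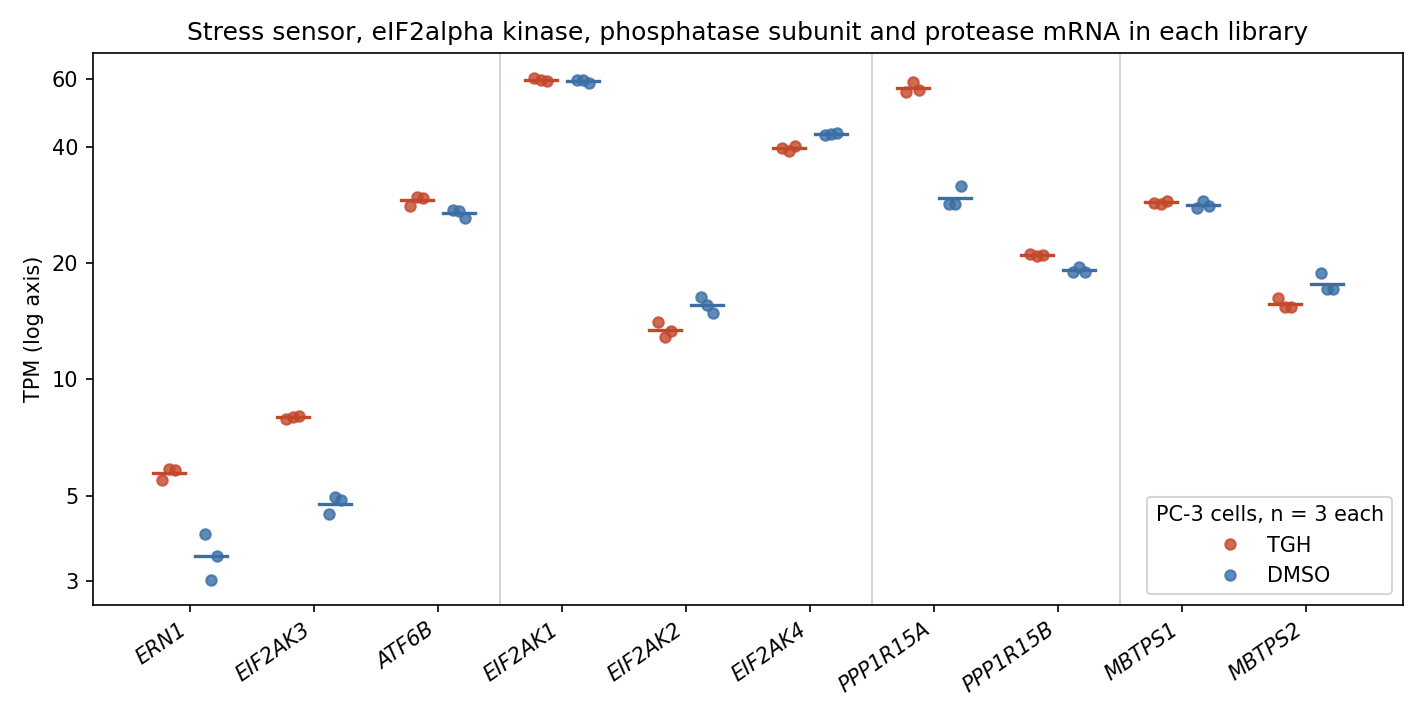
TPM on a log axis of the 10 genes in each library, TGH left of DMSO, with points for the 3 libraries of a group and a line at their mean. PPP1R15A, EIF2AK3 and ERN1 show the widest gaps between the groups, and for EIF2AK1 and MBTPS1 the groups overlap.

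Among the ER sensors, EIF2AK3 mRNA stood at 7.91, 8.001 and 8.06 TPM in TGH replicates 1 to 3, against 4.49, 4.95 and 4.87 TPM in DMSO replicates 1 to 3. Every TGH library lay above every DMSO library, and the gap was wide next to the spread within either group. The difference was 0.64 on the log2(TPM + 1) scale (SE 0.046, 95% interval from 0.53 to 0.75, limma adjusted p = 6.2e-05). Of all genes tested 556 rose by more. An antisense gene in GENCODE release 29, not analysed here, covers 14.4% of the exon bases of EIF2AK3.

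ERN1 mRNA, for the kinase and ribonuclease IRE1, stood at 5.49, 5.85 and 5.83 TPM with TGH, against 3.97, 3.03 and 3.49 TPM in DMSO. The groups did not overlap, although the DMSO libraries were spread more widely (SD 0.471 TPM) than the TGH libraries (SD 0.198 TPM). ERN1 rose by 0.59 on the log2 scale (SE 0.081, 95% interval from 0.39 to 0.78, limma adjusted p = 0.0011). Its lowest and highest DMSO values came from the 2 libraries with the most genes listed at 0, and against DMSO replicate 3 alone the difference was 0.58. A single control has no spread of its own, so a p from such a comparison rests on the TGH libraries and on the assumption that the control varies as they do. The adjusted p ran from 0.000448 to 0.00699 over the 16 alternatives that kept the gene. The offset of 1 makes the log2 difference of these scarce mRNAs smaller than the ratio of their TPM.

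ATF6B mRNA stood at 28.1, 29.7 and 29.5 TPM with TGH, against 27.4, 27.3 and 26.2 TPM in DMSO. The groups came close without overlapping. The difference was 0.10 on the log2 scale (SE 0.035, limma adjusted p = 0.0417), and 70.6% of all genes tested differed by more in either direction. The call was lost without TGH replicate 2 (0.09, adjusted p = 0.132), TGH replicate 3 (0.09, adjusted p = 0.130), DMSO replicate 2 (0.11, adjusted p = 0.0590) or DMSO replicate 3 (0.08, adjusted p = 0.113). It was also lost with all 6 libraries kept, as under median scaling (0.070, adjusted p = 0.151). Over 17 alternatives the adjusted p of ATF6B ran from 0.0325 to 0.151. ATF6B lies in the major histocompatibility complex, a region known for alternate haplotype sequences, and how its reads were assigned is not given in the sources used here. In the GENCODE annotation AL662884.2, a processed transcript on the same strand, covers 7.96% of the exon bases of ATF6B and was not analysed here. Exons of TNXB cover 1.96% of those bases, with TNXB at 0.260 TPM with TGH and 0.136 TPM in DMSO.

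EIF2AK1, for the kinase HRI, had the highest mRNA level of the 10 genes in both groups. It stood at 60.3, 59.5 and 59.1 TPM with TGH, against 59.6, 59.5 and 58.7 TPM in DMSO. The groups overlapped and the difference of 0.01 was not called (limma adjusted p = 0.752, 95% interval from -0.04 to 0.06). Its sign turned under median scaling (-0.02) and after rescaling without small RNAs (-0.00174). Exons of AIMP2, on the opposite strand, cover 9.59% of its exon bases, and AIMP2 was at 32.2 TPM with TGH and 35.01 TPM in DMSO. Whether reads were counted by strand is not given in the sources used here.

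EIF2AK4, for the kinase GCN2, stood at 39.7, 39.1 and 40.2 TPM with TGH, against 42.9, 43.2 and 43.4 TPM in DMSO. The groups were apart and tight, and the mRNA fell by 0.12 on the log2 scale (SE 0.024, limma adjusted p = 0.00573). EIF2AK2, for the kinase PKR, stood at 14.1, 12.8 and 13.3 TPM with TGH, against 16.3, 15.5 and 14.9 TPM in DMSO. It too was lower in every TGH library, and fell by 0.20 (SE 0.049, limma adjusted p = 0.0126). Against DMSO replicate 3 alone, the lowest of its controls, the difference of EIF2AK2 was -0.14 (adjusted p = 0.120, with 0.00628 as the lowest of 17 alternatives), where the TGH libraries alone supply the spread.

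The mRNA of all 4 kinases together came to 122, 119.4 and 120.7 TPM in the TGH libraries, against 123.2, 123.2 and 121.8 TPM in the DMSO libraries, so the totals overlapped. Within that total the share of EIF2AK3 was 6.48%, 6.70% and 6.68% with TGH, against 3.64%, 4.01% and 3.996% in DMSO. The share of EIF2AK2 was 11.6%, 10.8% and 11.03% with TGH, against 13.3%, 12.6% and 12.2% in DMSO. HRI mRNA made up the largest share in all 6 libraries, from 49.02% to 49.8% with TGH and from 48.2% to 48.3% in DMSO. PERK mRNA was the scarcest of the 4 in all 6 libraries, also where it was highest.

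**Figure D2:**
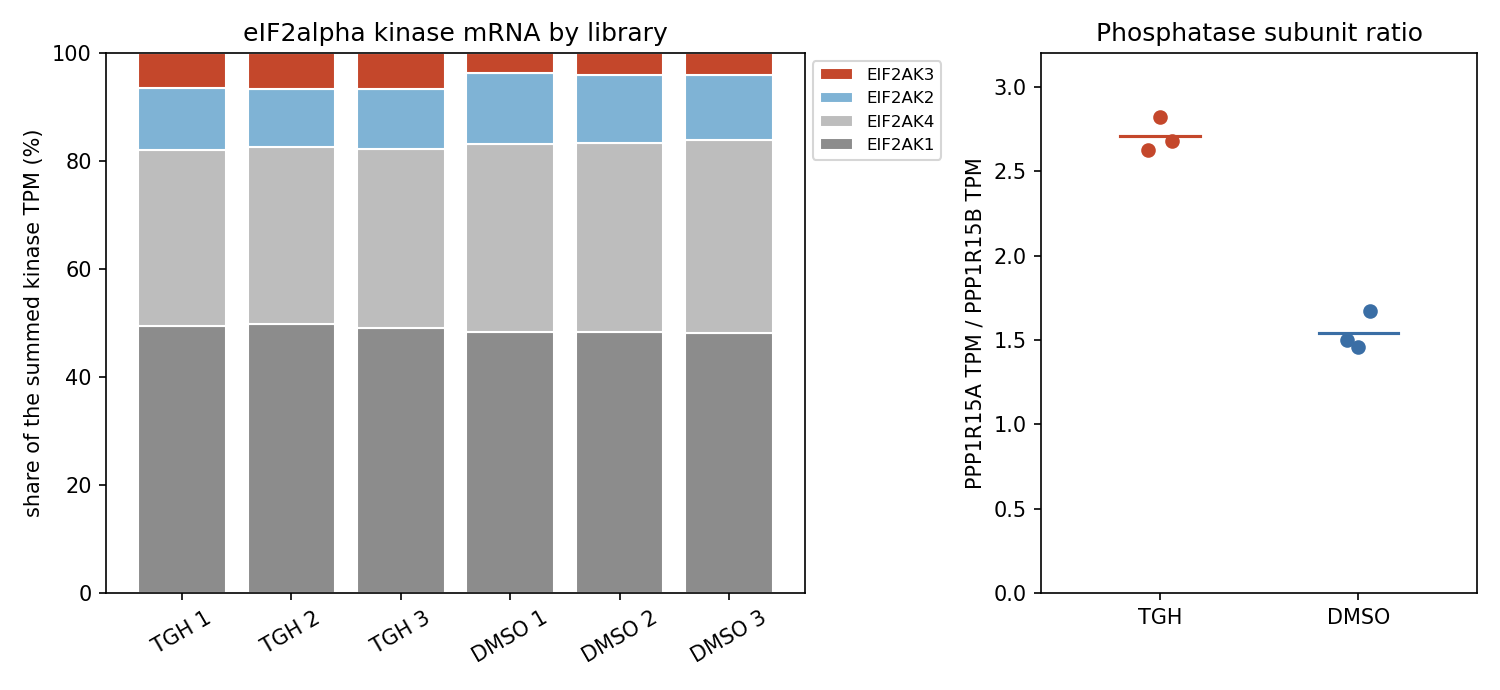
Left, the share of each kinase in the summed TPM of the 4 eIF2alpha kinases in each library, TGH libraries before DMSO libraries. Right, the ratio of PPP1R15A TPM to PPP1R15B TPM in each library with the group mean as a line. The EIF2AK3 share lies between 6.48% and 6.70% with TGH and between 3.64% and 4.01% in DMSO.

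The difference between EIF2AK3 and each other kinase within a library was compared between groups by an exact two-sided permutation test, which with 3 libraries each cannot go below p = 0.1. Measured against EIF2AK1, EIF2AK3 lay at -2.75 ± 0.026 with TGH and -3.39 ± 0.067 in DMSO on the log2(TPM + 1) scale (SD, n = 3 each). That is a shift of 0.63 (exact permutation p = 0.1, adjusted p = 0.12 over the 6 pairs compared). The shift was 0.84 against EIF2AK2 and 0.76 against EIF2AK4, each with the same exact p-values and with no overlap between the groups. Relative to ERN1, EIF2AK3 shifted by 0.06 (exact permutation p = 0.7, adjusted p = 0.7), less than the SD of 0.21 among the DMSO libraries. That shift was -0.054 without DMSO replicate 1 and 0.155 without DMSO replicate 2, so it has no stable sign.

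**Figure D3:**
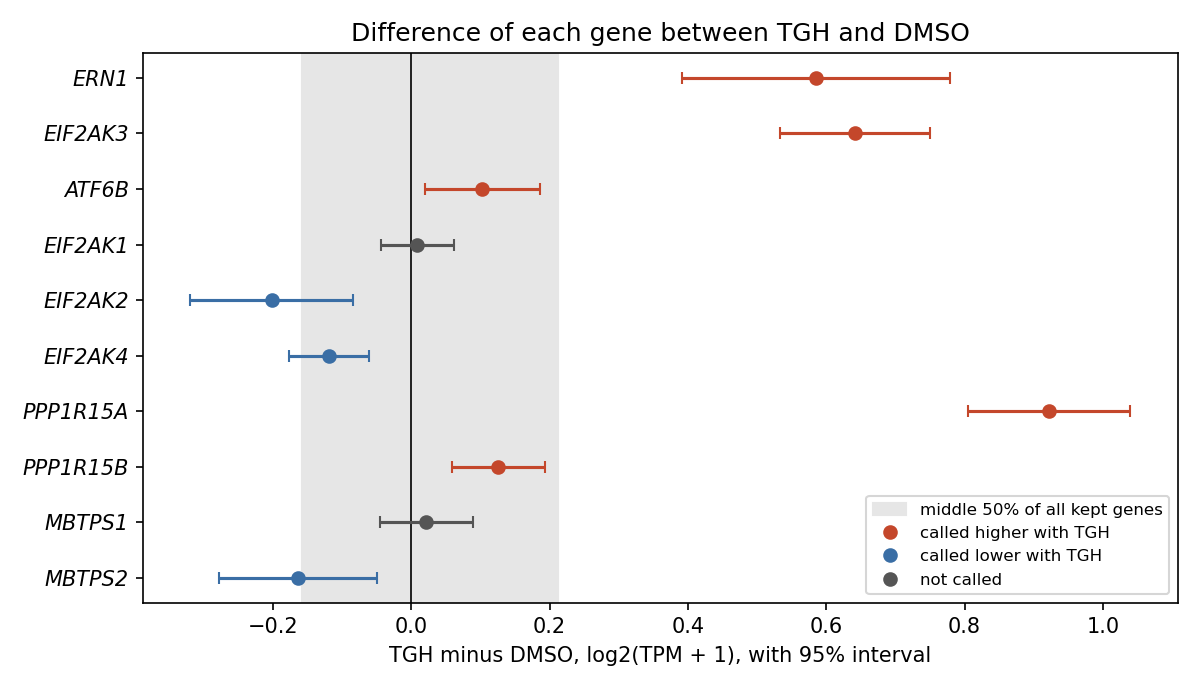
Difference between TGH and DMSO on the log2(TPM + 1) scale for the 10 genes, with 95% intervals from limma, and in grey the range of the middle 50% of all 12018 genes tested, from -0.16 to 0.21. PPP1R15A, EIF2AK3 and ERN1 lie outside the grey range with their whole intervals.

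PPP1R15A mRNA, for the stress-inducible phosphatase subunit GADD34, had the largest difference of the 10 genes. It stood at 55.4, 59.0 and 56.1 TPM with TGH, against 28.5, 28.5 and 31.7 TPM in DMSO. The groups were far apart, and PPP1R15A rose by 0.92 on the log2 scale (SE 0.049, 95% interval from 0.80 to 1.04, limma adjusted p = 2.0e-05). Of all genes tested 216 rose by more, and 2.37% differed by more in either direction. With TGH it was the second of the 10 in level, next to EIF2AK1, and in DMSO it was the third, where its range overlapped that of MBTPS1.

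PPP1R15B mRNA, for the constitutive subunit CReP, stood at 21.1, 20.9 and 21.0 TPM with TGH, against 18.9, 19.5 and 19.0 TPM in DMSO. The groups did not overlap, and PPP1R15B rose by 0.13 (SE 0.028, limma adjusted p = 0.00906), a smaller difference than that of 64.3% of all genes tested. The ratio of PPP1R15A to PPP1R15B was 2.63, 2.82 and 2.68 with TGH, against 1.502, 1.46 and 1.67 in DMSO. On the log2 scale PPP1R15A exceeded PPP1R15B by 1.39 ± 0.053 with TGH and by 0.60 ± 0.098 in DMSO (SD, n = 3 each), a shift of 0.80 (exact permutation p = 0.1, adjusted p = 0.12 over 6 pairs). The promoters shown above differ too, with TGACGTCA in that of PPP1R15A and TGATGCAA in that of PPP1R15B, but no measurement here links these letters to the levels.

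The 5 genes whose values lay nearest to those of PPP1R15A, by Euclidean distance between log2 values centred on the mean of the 6 libraries, were TSPYL2, TMEM136, HAGHL, ERCC2 and PABPC1L, out of 12017 genes ranked. Their distances ran from 0.0612 to 0.112, and their differences between TGH and DMSO from 0.91 to 0.97. ERCC2, a helicase of DNA repair and transcription, was at 48.2 TPM with TGH and 25.0 TPM in DMSO. TSPYL2, a nuclear protein of the nucleosome assembly family, was at 9.49 TPM with TGH and 4.53 TPM in DMSO. Over 6 libraries in 2 groups such a likeness is mostly a like difference between the groups.

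MBTPS1, the site-1 protease that makes the first cut in membrane-bound transcription factors, stood at 28.6, 28.5 and 29.03 TPM with TGH, against 27.8, 28.9 and 28.1 TPM in DMSO. The groups overlapped and the difference of 0.02 was not called (limma adjusted p = 0.540, 95% interval from -0.05 to 0.09). Under median scaling its sign turned (-0.01). MBTPS2, the protease of the second cut, stood at 16.2, 15.4 and 15.4 TPM with TGH, against 18.9, 17.1 and 17.1 TPM in DMSO. No TGH library reached the lowest DMSO library, and MBTPS2 fell by 0.16 (SE 0.048, limma adjusted p = 0.025).

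The call of MBTPS2 was lost without TGH replicate 2 (-0.15, adjusted p = 0.0826) and without TGH replicate 3 (-0.15, adjusted p = 0.0831), within a range from 0.0123 to 0.103 over 17 alternatives. Against DMSO replicate 3 alone, with the spread of the TGH libraries only, the difference was -0.12 (adjusted p = 0.103). YY2, an intronless gene whose exon is shared with annotated exons of MBTPS2 over 12.2% of their bases, was at 1.71 TPM with TGH and 2.07 TPM in DMSO. The ratio of MBTPS1 to MBTPS2 in TPM was 1.76, 1.85 and 1.88 with TGH, against 1.47, 1.69 and 1.64 in DMSO. As a log2 difference this was 0.83 ± 0.046 with TGH and 0.65 ± 0.099 in DMSO (SD, n = 3 each), a shift of 0.19 (exact permutation p = 0.1, adjusted p = 0.12 over 6 pairs).

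In order of level with TGH, the 10 genes were EIF2AK1, PPP1R15A, EIF2AK4, ATF6B, MBTPS1, PPP1R15B, MBTPS2, EIF2AK2, EIF2AK3 and ERN1, and of these neighbours only ATF6B and MBTPS1 overlapped. In DMSO the order was the same except that EIF2AK4 stood above PPP1R15A and MBTPS1 above ATF6B, and of the neighbours only PPP1R15A and MBTPS1 overlapped. TPM is a share of the transcripts quantified in a library, so a change in total RNA per cell is not seen. The RNA came from many cells together, so fewer cells with a transcript and less of it per cell cannot be told apart.

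Around the IRE1 sensor, of 11 kept genes that process its signal or regulate it 4 were higher, 3 were lower and 4 were not called, with a median of 0.01. These counts are close to the shares over all genes tested, 28.9% higher and 26.3% lower, and are no result about the list. XBP1, the transcription factor whose mRNA IRE1 splices, was at 59.4 ± 0.940 TPM with TGH and 35.4 ± 3.91 TPM in DMSO (SD, n = 3 each) and rose by 0.74 (limma adjusted p = 0.000272). The table has 1 value per gene, so spliced and unspliced XBP1 cannot be told apart. PDIA6, a disulfide isomerase that attenuates IRE1, rose by 0.82 and SEC63, part of the ER translocon, by 0.43. DDX1, a helicase of the tRNA ligase complex that joins the cut XBP1 mRNA, fell by 0.26.

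Genes known as targets of spliced XBP1 were higher in 15 of 16 cases, with 0 lower and a median of 0.67. Over all genes tested 28.9% were higher and 26.3% lower. This list and the next were chosen with their rise already seen, so their counts are no independent evidence. HYOU1, an ER chaperone, rose by 1.49, SEL1L, an adaptor of ER-associated degradation, by 1.16, DNAJB11, a co-chaperone, by 1.12 and SYVN1, the ubiquitin ligase partner of SEL1L, by 0.92. Of 12 genes of ER folding and degradation known to answer the ATF6 type of sensor, 2 of them also in the XBP1 target or kinase regulator list, all 12 were higher, with a median of 1.499. MANF, a secreted ER stress protein, was higher by 1.87, PDIA4, a disulfide isomerase, by 1.78, HSPA5, the lumenal HSP70, by 1.66 and HSP90B1, the lumenal HSP90, by 1.51.

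On the substrate side of the kinases, of 11 genes for eIF2, its exchange factor eIF2B and related initiation factors, 0 were higher, 4 were lower and 7 were not called, with a median of -0.05. Over all genes tested 28.9% were higher and 26.3% lower, with a median of 0.02. EIF2S1, which encodes eIF2alpha itself, was at 69.9 ± 1.68 TPM with TGH and 82.1 ± 0.922 TPM in DMSO (SD, n = 3 each) and fell by 0.23 (limma adjusted p = 0.000446). EIF2S3, the gamma subunit, fell by 0.22, EIF2B5, the catalytic subunit of eIF2B, by 0.29 and EIF5, which promotes GTP hydrolysis by eIF2, by 0.31. In TPM there were 0.589, 0.575 and 0.575 EIF2S1 transcripts per kinase transcript in TGH replicates 1 to 3, against 0.671, 0.670 and 0.665 in DMSO replicates 1 to 3. The 2 groups of ratios did not overlap, and the groups did not overlap for 64.4% of all genes tested either. Since the kinase totals overlapped, the ratio mainly restates the fall of EIF2S1 and is no further result.

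Of 12 regulators of the kinases 5 were higher, 3 were lower and 4 were not called, with a median of 0.04. With 55.2% of all genes called, these counts too are no result about the list. DNAJC3, an ER co-chaperone known as an inhibitor of PKR and PERK, was at 29.7 ± 0.463 TPM with TGH and 12.8 ± 0.717 TPM in DMSO (SD, n = 3 each) and rose by 1.16 (limma adjusted p = 5.8e-06). OMA1, the mitochondrial protease known to send a stress signal to HRI, was at 7.94 ± 0.590 TPM with TGH and 4.70 ± 0.325 TPM in DMSO and rose by 0.65 (limma adjusted p = 0.000311). PRKRA, a protein activator of PKR, rose by 0.37, while ADAR, an RNA editing enzyme that limits PKR activation, fell by 0.29. Among the partners of the phosphatase subunits, the catalytic subunit genes PPP1CA and PPP1CC fell by 0.27 and 0.31 and PPP1CB rose by 0.15. SMARCB1, a chromatin protein that binds GADD34, had a difference of 0.10 and was not called (limma adjusted p = 0.160).

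Of 17 kept genes known as targets of the integrated stress response, 16 were higher and 1 was lower, with a median of 0.79. Phosphorylation of eIF2alpha was not measured. The shares over all genes tested were 28.9% higher and 26.3% lower. The rise of this list was also seen before it was chosen, so the count is no independent evidence. DDIT3, the transcription factor CHOP, rose by 2.01, ASNS, which makes asparagine, by 1.52, SLC3A2, an amino acid transporter subunit, by 1.37 and TRIB3, a pseudokinase, by 1.29. The lower gene was ATF5, a transcription factor, at 44.6 ± 1.25 TPM with TGH and 63.5 ± 2.20 TPM in DMSO (SD, n = 3 each), named after its value was seen. It fell by 0.50 (limma adjusted p = 6.1e-05).

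Substrates and cofactors of the site proteases had 8 higher, 1 lower and 3 not called of 12, with a median of 0.32. Among all genes tested 28.9% were higher and 26.3% lower. This list too was chosen with earlier results of these data known. Of the proteases, MBTPS1 was not called and MBTPS2 fell. CREB3L2, a membrane-bound transcription factor of secretory cells, was at 12.2 ± 0.571 TPM with TGH and 7.19 ± 0.156 TPM in DMSO (SD, n = 3 each) and rose by 0.68 (limma adjusted p = 4.4e-05). CREB3, its relative, was at 45.1 ± 1.35 TPM with TGH and 28.9 ± 2.03 TPM in DMSO and rose by 0.63 (limma adjusted p = 0.000127). ATF6, the paralog of ATF6B and a sensor cut by both proteases, was at 17.4 ± 0.374 TPM with TGH and 13.4 ± 0.418 TPM in DMSO and rose by 0.35 (limma adjusted p = 0.000292). SREBF1, the lipid synthesis regulator cut by both proteases, was the lower gene and fell by 0.47.

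**Figure D4:**
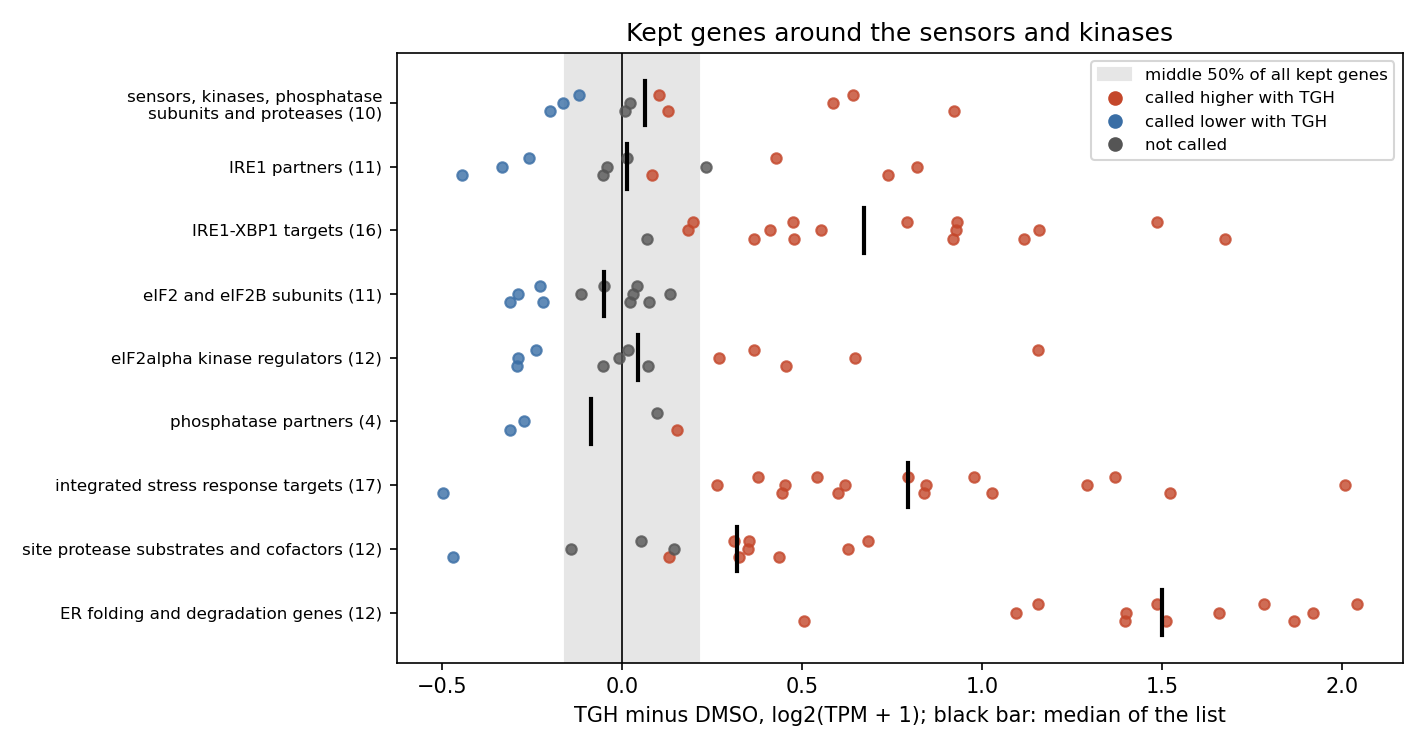
Difference between TGH and DMSO on the log2(TPM + 1) scale for each kept gene of the 10 and of 8 lists around them, with list sizes in brackets, a black bar at the median and the middle 50% of all genes tested in grey. The 3 target lists lie mostly to the right of the grey range, with medians of 0.67, 0.79 and 1.499. Their rise was already seen when they were chosen. Site protease substrates have a median of 0.32 and phosphatase partners of -0.09. The 10 genes, IRE1 partners, eIF2 genes and kinase regulators have medians from -0.05 to 0.06.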

How the data were processed

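RNA of PC-3 cells was made into directional libraries after ribosomal RNA depletion, per the labels' protocols. The table deposited by the authors gives log2(TPM + 1), with 1 row per gene symbol. The offset of 1 was read from the smallest value, which is exactly 0. Per the submitters' processing notes the build was hg19. No aligner, quantifier or annotation is named in the sources used here. Depth cannot be read from TPM, and TPM per library added up to between 50.2% and 51.9% of a complete column.

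Genes averaging 1 TPM or more across all 6 libraries were tested. TGH and DMSO were compared with limma 3.58.1 in R 4.3.3 (moderated variances with a trend, two-sided, Benjamini-Hochberg adjustment over all kept genes). The step was tested on simulated data in which far fewer genes changed than were called here. That test therefore does not cover so broad a change. Pairs of the 10 genes were compared by exact permutation. The 10 genes and the lists were chosen with earlier results of these data known, so the target lists, already seen to rise, are no independent evidence. Named genes are all 10, the 4 with the smallest p in each list, the 5 nearest in pattern to the called gene with the largest difference, and any said to be outside this rule. Promoters came from RefSeq (GRCh38.p14) and exon overlaps from GENCODE release 29 (GRCh38), whose build differs from that of the values, so they serve for names, letters and neighbours only. Figures were drawn with matplotlib 3.10.9. The alternatives were other pseudocounts, filters, scalings and variance models, the replicate block, each library left out, and DMSO replicate 3 as the only control. Leaving out libraries for the pairs was added after the data were seen.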

Additional observations from a re-analysis of the deposited data

How the results depend on the processing

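PPP1R15A, EIF2AK3, PPP1R15B and EIF2AK4 kept their direction and their call under all 17 alternatives, and ERN1 under the 16 that kept it, since a filter at 5 TPM removed it. ATF6B was not called under median scaling (0.070, adjusted p = 0.151), after rescaling without small RNAs (0.094, adjusted p = 0.0598), without a variance trend (0.10, adjusted p = 0.0569), with the replicate block (0.10, adjusted p = 0.0789) or against DMSO replicate 3 alone (0.14, adjusted p = 0.0514), and with single libraries left out its difference ran from 0.082 to 0.127. For MBTPS2 that range was -0.19 to -0.12. Against DMSO replicate 3 alone MBTPS2 had -0.12 and EIF2AK2 -0.14, and 1 of the 10 genes was called lower. The control spread cannot be measured there and is assumed equal to that of the TGH libraries. The uncalled differences of EIF2AK1 (-0.024) and MBTPS1 (-0.011) changed sign under median scaling, as did that of EIF2AK1 after rescaling without small RNAs (-0.00174). The cause of these losses was not tested. The pseudocount set the size of the shift of EIF2AK3 against the other kinases, since EIF2AK3 is scarce. It was 0.73 against EIF2AK1 and 0.86 against EIF2AK4 at a pseudocount of 0.1. At 5 it was 0.40 against EIF2AK1, 0.57 against EIF2AK2 and 0.52 against EIF2AK4. Deviations of same-numbered libraries correlated at 0.00877, 0.0544 and 0.228 for replicates 1 to 3. TGH replicates 2 and 3 correlated best with the DMSO library of their own number, and TGH replicate 1 with another number. With 3 libraries in each group such correlations cannot decide whether the libraries are paired. The block changed no other call among the 10 genes. TPM keeps no depth, so its effect on these genes was not measured.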
